A study of Mus musculus with 6 samples.

Results

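Transcripts of 9 G protein-coupled receptors for vasoactive signals were followed in RNA-seq libraries of mouse cardiac fibroblasts. The receptors were *Npy1r*, *Agtr1a*, *Ednra*, *Ednrb*, *Adra1b*, *Bdkrb2*, *F2r*, *Lpar1* and *Ptgfr*, 9 of the 22063 genes in the table, each matched by its symbol to 1 row. They were selected on earlier results of the same comparison, in which *Npy1r* was among the genes with the lowest log2 fold change, so their differences between groups are given as descriptions with no p-value, and nothing is read from how many of them passed a threshold. The cells, labelled as fibroblasts of the heart, came from C57BL/6 J mice with floxed *Tet3* alleles and received an adenovirus coding for GFP (labelled Control) or for Cre recombinase (labelled Tet3 knockout, called CRE here). Both groups were treated with TGF-β, the cytokine that drives fibroblasts to become myofibroblasts, and held 3 libraries each. The study calls its replicates biological, but neither age nor the number of mice behind a library is given in the labels, so p-values measure only the spread between these libraries, which may be partly technical.

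Vasoactive receptors bind hormones, transmitters, peptides or lipids at the cell surface and pass the signal to heterotrimeric G proteins. Those coupled to the Gq class activate phospholipase C-β and release calcium, those coupled to G12 and G13 activate RhoA, and those coupled to Gi lower cyclic AMP. In the heart, angiotensin II and endothelin act on fibroblasts as well as on vessels and are classical drivers of fibrosis. Neuropeptide Y, bradykinin, thrombin, lysophosphatidic acid and prostaglandin F2α are the ligands of other receptors described here.

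Total counts were between 17002126 and 20343590 per library, at which 3 counts, the limit that a count of 0 allows, correspond to between 0.156 and 0.187 CPM (counts scaled to library size, with TMM factors), counting error only. *Tet3* itself had 965 to 1044 counts in GFP libraries and 637 to 649 in CRE libraries, or 57.1 ± 6.88 against 34.7 ± 1.17 CPM (SD, n = 3 each), so that its CPM in CRE was 60.8% of that in GFP. By the test used below (edgeR, adjusted p below 0.05), 25.7% of all tested genes were lower and 25.5% higher in CRE libraries. All 12 fibroblast markers examined were present, and 11 of them were lower and 0 higher in CRE libraries, with a median log2 fold change of -0.83. Their sum was 41159 to 42473 CPM in GFP and 22560 to 24645 CPM in CRE, or 6405 to 6727 and 3493 to 3745 CPM without *Col1a1*, *Col1a2* and *Col3a1*. Markers of other cells were present as well, and the sums of some of these sets, though not of all, differed between groups. Of 21 endothelial markers 18 were lower and 1 (*Eng*) higher in CRE libraries, and the sum of the 20 without *Eng* was 667.8 to 731 CPM in GFP and 342 to 367 CPM in CRE. Of 15 tested mural cell markers 8 were lower and 1 (*Cspg4*) higher, with sums of 1201 to 1341 and 989.9 to 1017 CPM. *Pdgfrb*, which fibroblasts also express, made up 76.4% to 78.7% of these sums, and without it they were 275 to 286 and 223 to 226 CPM. Macrophage markers summed to 32.6 to 35.7 and 20.0 to 23.9 CPM, Schwann cell markers to 7.27 to 9.30 and 6.07 to 6.61 CPM, mesothelial markers to 6.91 to 7.27 and 5.12 to 8.86 CPM and cardiomyocyte markers to 0.789 to 1.25 and 1.53 to 2.79 CPM. The mesothelial sums overlapped, with 1 of 3 tested markers lower and 2 higher. Without *Nppb* the cardiomyocyte sums overlapped (0.733 to 1.09 and 0.831 to 1.29 CPM), and *Myh6*, which defines cardiomyocytes, was at 0 in every library. Endothelial and mural cells also express several of the 9 receptors, and the part of these cells in the values below was not tested. In bulk RNA, fewer cells of a type and less RNA per cell cannot be told apart.

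*Npy1r* (ENSMUSG00000036437), the Y1 receptor for neuropeptide Y, couples to Gi and mediates vasoconstriction by sympathetic nerves. The gene lies on the plus strand of chromosome 8, positions 66697192 to 66706792 (GRCm38, GENCODE M21). Its counts were 1672, 2109 and 2336 with GFP and 375, 392 and 449 with CRE. These are 104, 119 and 121 CPM in GFP against 20.1, 21.7 and 23.7 CPM in CRE. The groups were far apart, with the highest CRE library well below the lowest GFP library. The mean was 115 ± 9.42 CPM in GFP and 21.9 ± 1.78 CPM in CRE (SD, n = 3 each), which is 5.25-fold lower. The log2 fold change was -2.39 (SE 0.08). *Npy1r* had the 41st lowest log2 fold change of the 12862 genes with enough counts to be tested. Its spread within each group was small, with a coefficient of variation of 8.21% in GFP and 8.16% in CRE.

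*Bdkrb2* (ENSMUSG00000021070, plus strand of chromosome 12, positions 105563226 to 105595237), the constitutive B2 receptor for bradykinin, went the other way. Its counts were 12, 5 and 4 with GFP against 93, 93 and 96 with CRE. GFP libraries thus held close to the lowest level that can be counted, and CRE libraries were closely alike. On the CPM scale, 0.412 ± 0.292 in GFP and 5.07 ± 0.077 in CRE (SD, n = 3 each) gave a 12.3-fold higher mean and a log2 fold change of 3.65 (SE 0.32), the 14th highest of all tested genes. The size rests on few GFP counts, since without GFP replicate 1, the library with 12, the log2 fold change was 4.34.

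The endothelin receptors were both at lower levels in CRE libraries. *Ednra* (ENSMUSG00000031616, minus strand of chromosome 8, positions 77663031 to 77724464), the ETA receptor that causes contraction, had 178, 209 and 216 counts in GFP and 85, 107 and 112 in CRE. The groups did not overlap, and the mean in CRE was 48.2% of the 11.4 ± 0.376 CPM in GFP (SD, n = 3), with -1.05 (SE 0.12) as the log2 fold change. *Ednrb* (ENSMUSG00000022122, minus strand of chromosome 14, positions 103814625 to 103844402), the ETB receptor, which is abundant on endothelial cells, was scarce. It had 19, 18 and 30 counts in GFP and 6, 4 and 6 in CRE, again without overlap. Its CRE level was 22.9% of the 1.25 ± 0.279 CPM in GFP (SD, n = 3), and its log2 fold change -2.10 (SE 0.36). A non-coding transcript on the opposite strand, *4933431K23Rik*, overlaps *Ednra*, and whether counting used the strand is not given in the sources used here, so reads of this pair cannot be told apart.

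*Agtr1a* (ENSMUSG00000049115, chromosome 13, positions 30336441 to 30382867), the main type 1 receptor for angiotensin II in mice, was rare in these cells. It had 18, 34 and 25 counts in GFP libraries and 11, 14 and 17 in CRE libraries. The lowest GFP library lay only 1 count above the highest CRE library, and the log2 fold change was -0.93 (SE 0.32). Its near-identical copy *Agtr1b* had at most 1 count in a library. How the counting treated reads that fit both copies is not given, so the *Agtr1a* values are uncertain to that extent. *Gm48161*, a transcript annotated inside an intron, overlaps *Agtr1a* on the same strand.

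*Adra1b* (ENSMUSG00000050541, chromosome 11, positions 43774606 to 43901210), the α1B-adrenergic receptor for noradrenaline, had 15, 20 and 21 counts in GFP and 17, 20 and 27 in CRE. The groups overlapped in full, and the log2 fold change of 0.13 (SE 0.28) turned to -0.058 without CRE replicate 3. *Ptgfr* (ENSMUSG00000028036, chromosome 3, positions 151796502 to 151837630), the receptor for prostaglandin F2α, had 32, 50 and 39 counts in GFP and 18, 4 and 17 in CRE. Its counts did not overlap between groups, and the log2 fold change was -1.69 (SE 0.40). CRE replicate 2, with 4 counts, stood apart, and without it the value was -1.28. On the authors' FPKM scale (fragments per kilobase of transcript, scaled to library size) the *Ptgfr* groups did overlap, since CRE replicate 1 was at 0.440 and GFP replicate 1 at 0.283. An annotated transcript on the opposite strand, *Gm43618*, overlaps *Ptgfr*.

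The receptors for thrombin and lysophosphatidic acid were abundant and had the smallest differences among those whose groups were apart. *F2r* (ENSMUSG00000048376, minus strand of chromosome 13, positions 95601803 to 95618487) codes for PAR1, which thrombin cleaves to activate Gq and G12 signalling. Its counts were 9233, 9286 and 9774 in GFP and 12907, 11702 and 12015 in CRE libraries, or 508 to 574 CPM against 634 to 693 CPM. All CRE libraries were above all GFP libraries, by a log2 fold change of 0.30 (SE 0.06). *Lpar1* (ENSMUSG00000038668, minus strand of chromosome 4, positions 58435255 to 58553898), the LPA1 receptor that has been tied to fibrosis in several organs, had 1341, 1931 and 1901 counts in GFP and 1303, 1234 and 1196 in CRE. On the CPM scale GFP replicate 1 (83.4) came closest to the CRE libraries (63.1 to 70.0), and the log2 fold change was -0.53 (SE 0.09). The pseudogene *Gm12577* and the microRNA gene *Mir3095* overlap *Lpar1* on the same strand.

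**Figure D1:**
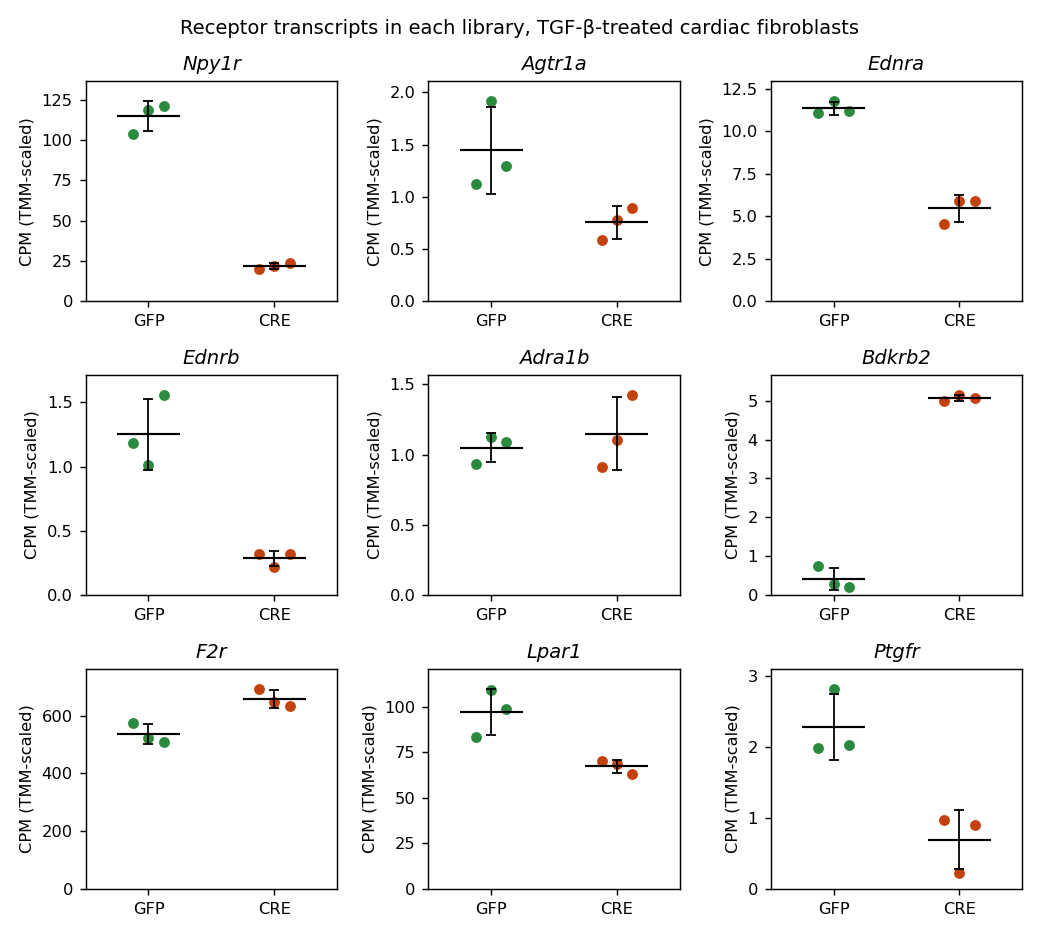
CPM (TMM-scaled, y axis from 0) of the 9 receptors in each GFP and CRE library, with the group mean (horizontal bar) and SD (error bar). *Npy1r* is at 104 to 121 CPM in GFP and 20.1 to 23.7 CPM in CRE, *Bdkrb2* is near 0 in GFP and near 5.07 CPM in CRE, and *Adra1b* is the receptor whose groups overlap.

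Counted over the list, 6 of the 9 receptors were lower and 2 higher by the quasi-likelihood test of edgeR (adjusted p below 0.05 over all genes), and 1 (*Adra1b*) was not called. *Agtr1a*, counted as lower, was not called without GFP replicate 2 (-0.68), GFP replicate 3 (-1.01), CRE replicate 1 (-0.78) or CRE replicate 2 (-0.95), nor under library size alone, by DESeq2 or on FPKM, 8 of its 15 alternatives in all. *Ptgfr* was not called on FPKM, so that the lower count was 5 under library size alone and by DESeq2 and 4 on FPKM. Over all 12862 tested genes, 25.7% were lower and 25.5% higher by the same rule. Groups did not overlap in CPM for 8 of the 9 and for 59.6% of all tested genes. As the receptors were chosen with this comparison known, nothing is read from these counts. All 9 passed the filter on low counts, but *Ednrb* and *Ptgfr* had under 10 counts in at least 1 CRE library and *Bdkrb2* in 2 GFP libraries, so they passed through the group in which they were high. The median log2 fold change was -0.93 for the 9 receptors and 0.0052 for all tested genes. With library size alone in place of TMM scaling, log2 fold changes of all genes were higher by a median of 0.16, yet the sign of all 9 receptors was the same, with *F2r* at 0.46 and *Lpar1* at -0.37.

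Levels of different receptors were compared per transcript length, as FPKM. In GFP libraries *F2r* was highest at 152 ± 9.58 FPKM (SD, n = 3), followed by *Npy1r* at 36.9 ± 3.08 and *Lpar1* at 30.3 ± 4.60. *Npy1r* was above *Lpar1* in each GFP library, although their ranges over libraries overlapped. *Ednra* came next at 2.96 ± 0.0998 FPKM, apart from its neighbours on either side. *Agtr1a* (0.621 ± 0.180), *Ptgfr* (0.581 ± 0.274) and *Adra1b* (0.476 ± 0.060) had ranges that ran into each other. *Ednrb* (0.312 ± 0.050) and *Bdkrb2* (0.103 ± 0.073) closed the order, each below the one before in every library. In CRE libraries *Npy1r*, at 7.84 ± 0.663 FPKM, came after *F2r* at 209 ± 8.98 and *Lpar1* at 22.2 ± 1.55, with no overlap between these ranges. *Bdkrb2* moved from the last place to the fifth, at 1.41 ± 0.028 FPKM, within the range of *Ednra* (1.60 ± 0.234). *Ednrb* was lowest at 0.083 ± 0.025 FPKM and overlapped with *Ptgfr* (0.219 ± 0.202). Of the summed FPKM of the 9 receptors, *Npy1r* made up 16.5% ± 1.55 in GFP and 3.24% ± 0.394 in CRE (SD, n = 3 each). *F2r* made up 67.7% ± 3.69 and 85.9% ± 0.385.

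**Figure D2:**
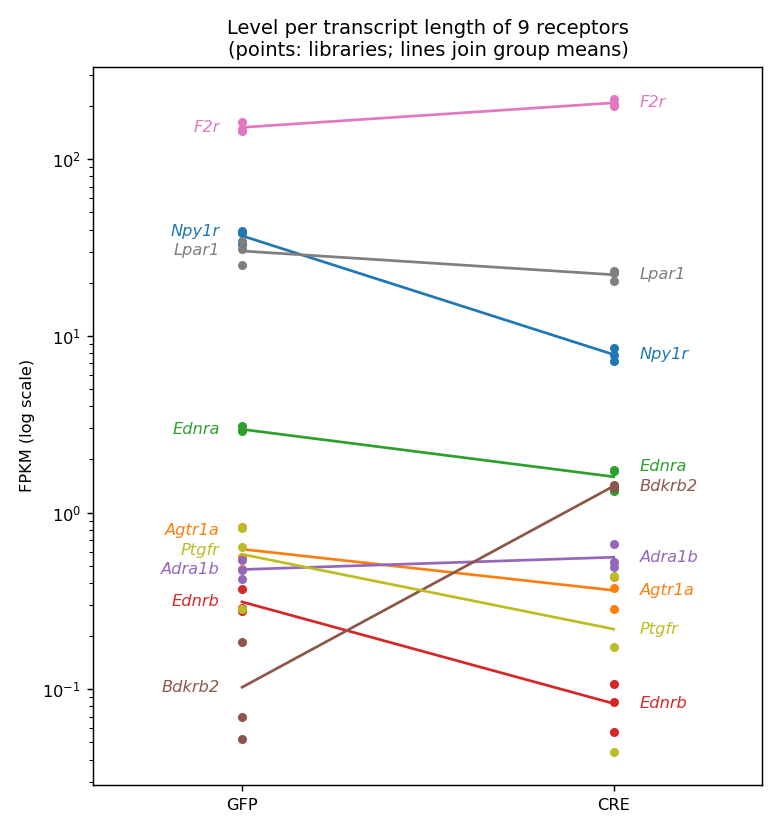
FPKM on a log axis of the 9 receptors in GFP (left) and CRE (right), with a point for each library and a line between the group means. *F2r* leads in both groups, *Npy1r* passes from the second place (36.9 FPKM) to the third (7.84 FPKM), and *Bdkrb2* from the last (0.103 FPKM) to the fifth (1.41 FPKM).

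The genes with the pattern most like that of *Npy1r* were sought among 8807 other tested genes whose mean reached 10 CPM. Likeness was the root mean square difference, over the 6 libraries, of log2 CPM relative to each gene's GFP mean. This measure rests mainly on the difference between groups, so the nearest genes have log2 fold changes like that of *Npy1r* by construction. The smallest differences were those of *Kit* (0.10), *Pappa* (0.14), *Cd93* (0.15), *Fbxo9* (0.21) and *Cadm3* (0.26), whose log2 fold changes ran from -2.44 to -2.09. *Cd93* is also one of the endothelial markers above. Among the other 8 receptors, *Ednrb* was nearest to *Npy1r* at 0.49 and *Bdkrb2* farthest at 4.16.

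Receptors that were not among the 9 were then tested. Of a list of 60 receptors for vasoactive peptides, amines, lipids and nucleotides, relatives of the 9 included, 28 had enough counts, of which 18 were lower (64.3%), 6 higher (21.4%) and 4 not called by edgeR's test, with a median log2 fold change of -0.64. Over all tested genes the shares were 25.7% lower and 25.5% higher. With library size alone 16 receptors of the list were lower and 6 higher. The largest decreases with a mean of at least 1 CPM were those of *P2ry6* (log2 fold change -2.21, SE 0.16, adjusted p of 3.26e-06), a receptor for UDP, and of *Adra2a*, *Ptgir* and *Lpar4* (-1.79, -1.54 and -1.44). *Adra2a* codes for the α2A-adrenergic receptor and *Ptgir* for the prostacyclin receptor. *Ptgir* fell from 111, 128 and 140 counts in GFP to 35, 52 and 49 in CRE. Increases included those of *P2ry14* (2.88, SE 0.31, adjusted p of 4.20e-05), *F2rl1* (1.45) and *Avpr1a* (1.06). *P2ry14*, a receptor for UDP-glucose, rose from 5, 4 and 11 counts to 53, 48 and 55. *P2ry14* in GFP and *Adra2a* in CRE (15, 9 and 10 counts) had under 10 counts in at least 1 library. Each thus passed the filter on low counts through the group in which it was high.

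Within the families of the 9 receptors the other members did not all move the same way. *Lpar4* fell with *Lpar2* (-0.52, adjusted p of 0.0107) and *Lpar6* (-0.58, adjusted p of 0.000180), so that each lysophosphatidic acid receptor with enough counts, *Lpar1* included, was lower in CRE libraries. *Lpar2* was not called on log2(FPKM + 1) or log2(FPKM + 0.1) values (-0.24 and -0.36). *F2rl1* codes for PAR2 and rose from 29, 24 and 26 counts to 73, 78 and 76 (adjusted p of 0.000163), the direction of *F2r*. *Adra1d* rose by 1.04 (SE 0.34, adjusted p of 0.0270), but was not called without GFP replicate 2 (0.78), CRE replicate 2 (0.94) or CRE replicate 3 (0.89). *Npy4r*, which prefers pancreatic polypeptide, had 10 to 32 counts and was not called (-0.52, SE 0.37, adjusted p of 0.265). *Bdkrb1*, the inducible bradykinin receptor next to *Bdkrb2*, was not tested, with 9, 16 and 18 counts in GFP and 1, 6 and 9 in CRE. The other receptors that were not tested had at most 15 counts in any library, and 5 of the 60, *Lpar5* among them, were at 0 in all of them. *Agtr2*, *Npy2r* and *Npy5r* had at most 1, 2 and 9 counts.

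**Figure D3:**
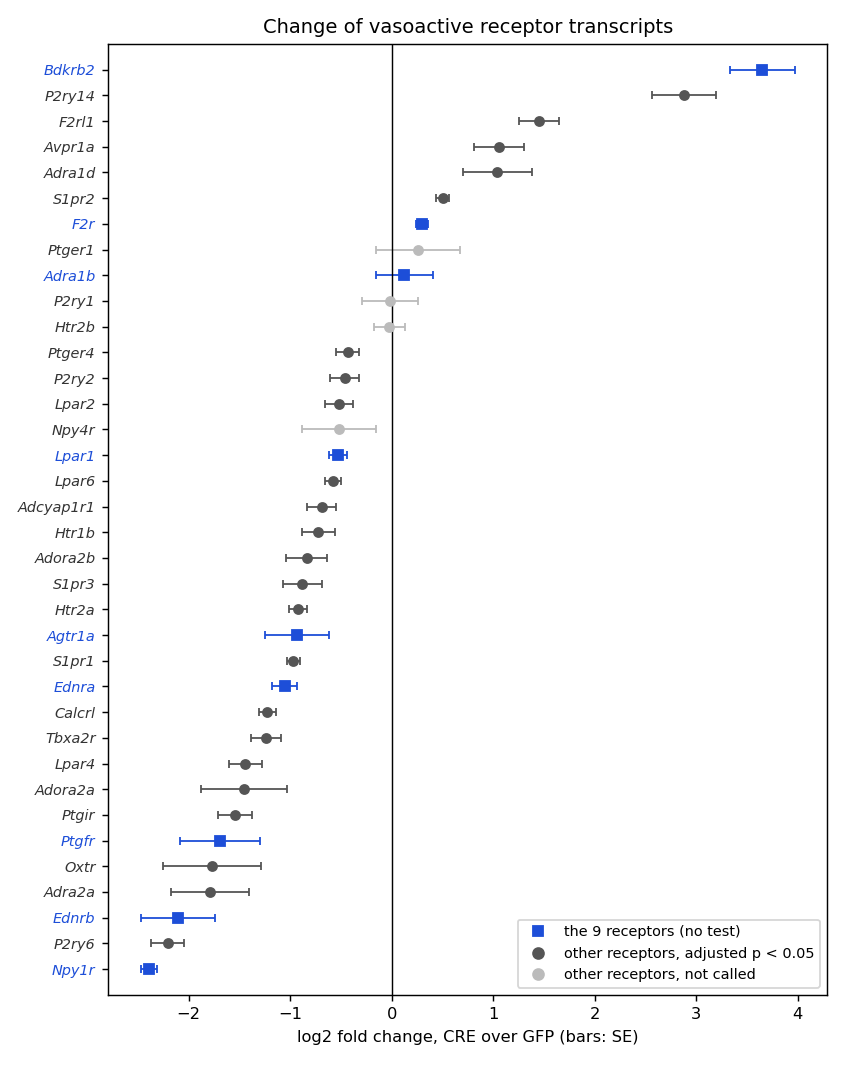
Log2 fold change (CRE over GFP, x axis, bars SE) of the 9 receptors (blue squares, no test) and of other tested receptors (circles, dark where adjusted p is under 0.05). Most receptors lie to the left of 0, *Npy1r* at the lower end (-2.39) and *Bdkrb2* and *P2ry14* at the upper end (3.65 and 2.88). *Bdkrb2* and *P2ry14* had few counts in GFP libraries.

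Ligands of the receptors and the enzymes that make or remove them were compared next. Of 35 such genes 24 were tested, of which 12 were lower (50%), 4 higher (16.7%) and 8 not called, with a median log2 fold change of -0.25. Over all tested genes the shares were 25.7% lower and 25.5% higher. The lower count of the list depended on the scaling, with 7 lower and 5 higher under library size alone. *Npy* itself had at most 1 count in a library, as did *Pyy*, so these *Npy1r* ligands were at or below the limit of detection in both groups. *Edn1*, which codes for endothelin-1, fell from 683, 685 and 745 counts to 525, 452 and 535 (-0.55, SE 0.07, adjusted p of 0.000102), and *Ece1*, which codes for its converting enzyme, fell by 0.35 on the log2 scale (SE 0.05, adjusted p of 0.000144). Both endothelin receptors were also at lower levels. *Edn2* and *Edn3* were at 0 in all libraries.

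*Enpp2* codes for autotaxin, which makes lysophosphatidic acid, and had the lowest log2 fold change of the list (-1.14, SE 0.17, adjusted p of 0.000358). It fell from 179, 212 and 252 counts to 73, 100 and 132. *Plpp3*, which codes for a phosphatase that degrades the same lipid, fell as well (-0.86, adjusted p of 0.000340), whereas the related *Plpp1* rose (0.32, adjusted p of 0.00814). *Anpep*, an aminopeptidase that trims angiotensin peptides, was lower (-0.89). *Ace*, which makes angiotensin II and degrades bradykinin, rose from 177, 163 and 171 counts to 323, 344 and 272 (0.81, SE 0.13, adjusted p of 0.000428). *Agt*, the angiotensin precursor, had 8 to 18 counts and was not called (-0.20, SE 0.36, adjusted p of 0.669), and *Ren1* was at 0 in all libraries.

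*Kng1*, which codes for the precursor of bradykinin, was lower at 29 to 62 counts (-0.76, adjusted p of 0.0216), but was not called without GFP replicate 1 (-0.67), GFP replicate 2 (-0.71), CRE replicate 2 (-0.65) or CRE replicate 3 (-0.66). *Kng2* (-0.22, adjusted p of 0.614) and *F2*, the gene of prothrombin (0.16, adjusted p of 0.749), were not called. For the prostaglandins, *Akr1b3*, which codes for a prostaglandin F synthase, rose (0.87, adjusted p of 0.000796). *Ptgs2*, the inducible cyclooxygenase, was higher (0.49, adjusted p of 0.0464), but was not called by DESeq2 or without GFP replicate 1 (0.32), GFP replicate 3 (0.45), CRE replicate 1 (0.49) or CRE replicate 2 (0.35).

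Downstream of the receptors, changes were smaller. Of 30 G protein α subunits and first effectors 25 were tested, of which 7 were lower (28.0%) and 10 higher (40.0%), with log2 fold changes between -0.57 and 0.43 and a median of 0.11. The shares over all tested genes were 25.7% lower and 25.5% higher, so the lower share of the list was near theirs. Under library size alone the list gave 4 lower and 16 higher, so the balance of directions depended on the scaling. Of the phospholipase C-β enzymes that Gq activates, *Plcb4* and *Plcb1* fell (-0.57 and -0.56, adjusted p of 5.18e-05 and 0.0101). *Plcb3*, added here after its values were seen, was not called (78.9 and 75.6 CPM, log2 fold change -0.061, adjusted p of 0.348), and *Plcb2*, with at most 2 counts, was not tested. *Arhgef25*, a RhoA exchange factor that Gq activates, fell by 0.51 on the log2 scale, and *Gnas*, which codes for the stimulatory α subunit, fell by 0.47. *Prkcd* and *Rock2*, kinases that act after phospholipase C and RhoA, rose (0.43 and 0.35, adjusted p of 7.38e-05 and 0.000161), as did *Gna12* (0.24). *Itpr3*, a calcium release channel, was higher (0.24), but was not called without GFP replicate 2 (0.21), GFP replicate 3 (0.22) or CRE replicate 1 (0.19). *Gnaq* was at -0.14 and turned to 0.025 under library size alone, *Gna11* was at 0.17 but was not called without GFP replicate 2 (0.14) or GFP replicate 3 (0.16), and *Gna13* was at 0.10 (adjusted p of 0.248) but was called without GFP replicate 2 (0.18) and under library size alone (0.26). *Gna14* and *Gna15*, also of the Gq class, were not tested, with at most 21 and 16 counts. *Gnaq* was called with all libraries (adjusted p of 0.0400), but not without GFP replicate 2 (-0.15), GFP replicate 3 (-0.11), CRE replicate 2 (-0.13) or CRE replicate 3 (-0.11), nor by DESeq2 (-0.14) or with upper-quartile scaling (-0.12).

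Of 30 genes for RGS proteins, receptor kinases, arrestins and accessory proteins 20 were tested, of which 5 were lower (25%) and 7 higher (35.0%), with a median log2 fold change of 0.070. Of all tested genes 25.7% were lower and 25.5% higher, so the lower share of the list was close to theirs. Library size alone gave 4 lower and 10 higher in the list, and without CRE replicate 2 the lower count was 3. RGS proteins speed the return of G proteins to their resting state. *Rgs5* fell from 360, 490 and 529 counts to 202, 196 and 234 (-1.19, SE 0.10, adjusted p of 9.04e-06), and *Rgs19* fell too (-0.64). *Rgs5* is also a pericyte marker, but the mural markers did not all follow it. Of the 15 tested, 8 were lower, *Rgs5* included, and 6 were not called. *Cspg4* was higher (1.03, SE 0.23, adjusted p of 0.00378). *Rgs10*, *Rgs16* and *Rgs4* rose (1.13, 0.42 and 0.35). *Arrb1*, which codes for β-arrestin 1, rose from 313, 371 and 361 counts to 597, 747 and 733 (0.92, SE 0.10, adjusted p of 2.88e-05). *Ramp2*, a partner of the adrenomedullin receptor, was lower (-1.26), but was not called without GFP replicate 3 (-1.0), CRE replicate 2 (-1.07) or CRE replicate 3 (-1.08). *Grk6*, a receptor kinase, was lower (-0.23), but was not called under library size alone (-0.070) or without GFP replicate 1 (-0.16) or CRE replicate 2 (-0.18).

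**Figure D4:**
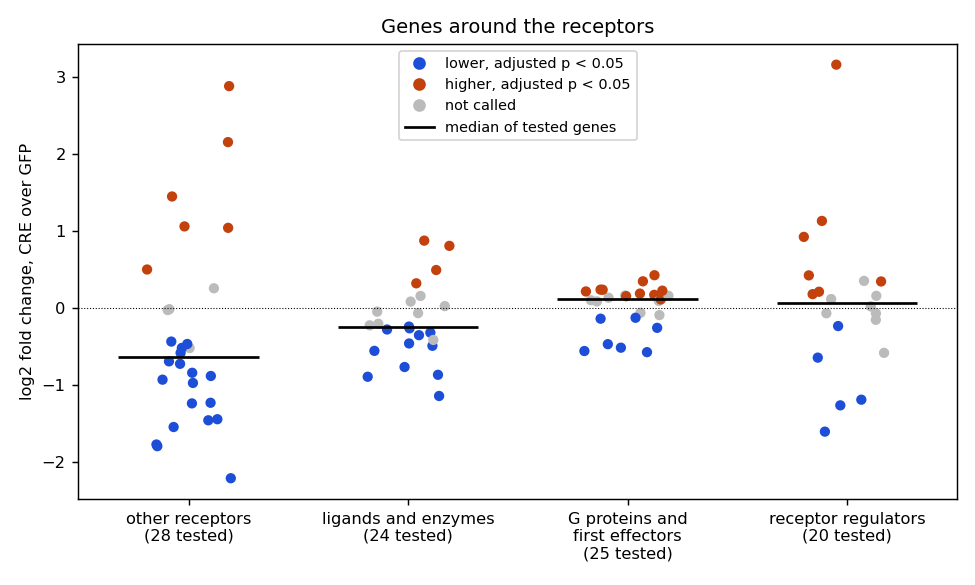
Log2 fold change (CRE over GFP) of each tested gene in 4 lists around the 9 receptors, with a bar at the median of each list and colours for genes lower (blue), higher (orange) or not called (grey) in edgeR's test. The other receptors spread from -2.21 to 2.88 around a median of -0.64, and the G proteins and first effectors from -0.57 to 0.43 around 0.11.

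Positions of the receptor genes, which the choice of the genes did not use, were examined through their neighbours. Within 250 kb of the start of a receptor gene lay the starts of 27 other protein-coding genes in the table, of which 16 were tested, 3 were lower (18.8%) and 7 higher (43.8%), or 2 and 10 under library size alone. Of all tested genes 25.7% were lower and 25.5% higher. Within 500 kb the balance of neighbours was nearly even, with 26.3% lower and 28.9% higher of 38 tested. Both tested neighbours of *Npy1r* were lower. *Naf1*, a factor for the assembly of small nucleolar ribonucleoproteins, lies 163 kb away and fell from 630, 686 and 798 counts to 372, 345 and 344 (-1.06, SE 0.06, adjusted p of 9.95e-07). *Tma16*, which acts in ribosome biogenesis, lies 211 kb away and fell by 0.63 on the log2 scale (SE 0.08, adjusted p of 0.000141). *Npy5r*, another neuropeptide Y receptor with its start 9.06 kb from that of *Npy1r*, was not tested, with 4, 4 and 9 counts in GFP and 2, 1 and 2 in CRE.

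Neighbours of *F2r* and *Ednra* were higher where they were called. *F2rl1* lies 93.3 kb from *F2r* and rose as given above, and *Aggf1* at 243 kb rose by 0.20. *Prmt9* (0.77, adjusted p of 2.64e-05) and *Arhgap10* (0.21) near *Ednra* rose, although *Ednra* was at a lower level. Near *Bdkrb2*, *Gskip* rose by 0.41, *Papola* was lower by the test (-0.19) and *Atg2b* and *D430019H16Rik* were not called. *Papola* was at -0.028 and not called under library size alone, and turned to 0.042 on log2(FPKM + 1) values. *Ttc1* near *Adra1b* rose by 0.54 and *Ifi44*, an interferon-stimulated gene near *Ptgfr*, by 0.78.

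**Figure D5:**
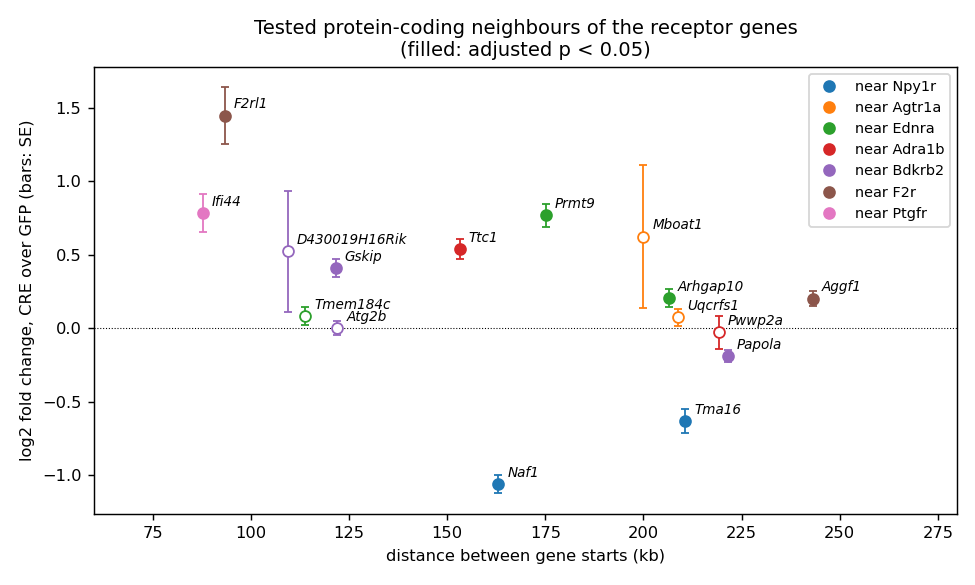
Log2 fold change (CRE over GFP, bars SE) of the 16 tested neighbours against the distance between their start and that of the receptor gene (kb), coloured by receptor and filled where adjusted p is under 0.05. *Naf1* (-1.06) and *Tma16* (-0.63) near *Npy1r* are lowest and *F2rl1* (1.45) near *F2r* is highest.

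TET3 acts on methylated cytosine, most of which stands before guanine (the letters CG), so the number of CG was counted in the 250 bases before each annotated start (RefSeq, GRCm38.p6). Windows were found for 8 of the 9 receptors, 11 in all. Several lie inside the longer GENCODE model of the gene, with 230 of the 250 bases for *Npy1r*, 102 for *Ptgfr* and all 250 for *Ednrb*, the 3 windows of *Lpar1* and the *Adra1b* window with 22 CG, so they are not upstream of the first start in GENCODE. A window held a median of 6 CG over 32851 windows of all genes, and 92.1% of these held at least 1. CG reads the same on both strands. The *F2r* window held 24, a number that 12% of all windows reached, against 10 for *Npy1r* (37.8%), 11 for *Ednrb* (35.6%), 7 for *Bdkrb2* (46.3%) and 6 for *Ednra* (50.4%). Genes with several windows spread widely, with 3 and 22 CG for *Adra1b* and 3 to 28 for *Lpar1*. The stretches before the annotated genes are shown for *Bdkrb2*, which differed most between groups, at chr12:105562922-105563171 on the plus strand, and for *F2r*, the most abundant receptor, at chr13:95618488-95618716 on the minus strand. Both are written 5′ to 3′ with each CG in capitals, 7 in the first and 22 in the second. Methylation of these bases was not analysed here.
Bdkrb2: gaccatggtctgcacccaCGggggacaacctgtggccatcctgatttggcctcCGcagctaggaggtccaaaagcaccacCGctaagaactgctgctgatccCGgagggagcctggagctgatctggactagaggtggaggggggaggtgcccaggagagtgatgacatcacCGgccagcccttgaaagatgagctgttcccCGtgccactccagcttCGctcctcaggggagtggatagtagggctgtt
F2r: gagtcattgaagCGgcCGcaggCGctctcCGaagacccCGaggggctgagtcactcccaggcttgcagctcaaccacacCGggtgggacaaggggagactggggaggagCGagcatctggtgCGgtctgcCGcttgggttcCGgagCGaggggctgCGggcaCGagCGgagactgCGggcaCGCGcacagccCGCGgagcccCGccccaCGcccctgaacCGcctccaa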

How the data were processed

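RNA-seq was performed on 3 GFP and 3 CRE libraries of TGF-β-treated mouse cardiac fibroblasts. Group and replicate of a library were read from its title. According to the methods, Trimmomatic was used for trimming, HISAT2 for alignment (GRCm38), HTSeq-count for gene counts and Cufflinks for FPKM. Tool versions and the strand setting of the counting are not given in the sources used here, and the methods name a stranded kit (TruSeq) but the labels another (SMARTER). The authors deposited raw counts and FPKM values per library. Their mean FPKM, log2 fold change, p-value and false discovery rate, also deposited by the authors, hold their own comparison and were not used.

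The count test was that of edgeR 4.0.16 in R 4.3.3 (filterByExpr, minimum count 10 and minimum total 15, TMM, two-sided quasi-likelihood test, Benjamini-Hochberg over 12862 genes, threshold 0.05). The SE of a log2 fold change is its size over the square root of the F statistic. CPM are scaled to effective library size. Fold changes of means use CPM. TMM factors were 0.944 to 0.947 in GFP and 1.05 to 1.06 in CRE libraries. Positions are from GENCODE M21, which held 99.6% of the genes, and promoter windows from RefSeq.

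The 9 receptors, the gene lists and the tests were chosen with earlier results of these data known. Named list genes are those called with at least 1 CPM on average and the 4 lowest or 4 highest log2 fold changes of a list, the ligands and relatives of the receptors, and their neighbours. *Tet3*, *Eng* and *Myh6* serve as checks. A gene of the receptor list is counted in its totals but not reported here by name. Alternatives were RLE, library size alone, upper-quartile scaling, 2 other filters, DESeq2 1.42.0, limma 3.58.1 on log2(FPKM + 1) and log2(FPKM + 0.1), blocking on replicate numbers, leaving out single libraries, CPM per kb and a 500 kb distance. Figures were drawn with matplotlib 3.10.9.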

Additional observations from a re-analysis of the deposited data

How the results depend on the processing

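The sign of *Npy1r*, *Agtr1a*, *Ednra*, *F2r* and *Lpar1* was the same in 15 of 15 alternatives, and that of *Ednrb*, *Bdkrb2* and *Ptgfr* in all 14 that kept them. Their calls were less stable, with *Agtr1a* past the threshold in 7 of 15 alternatives and *Ptgfr* in 12 of 14, and 4 to 6 receptors lower. Leaving out each library gave -2.46 to -2.33 for *Npy1r* and 3.31 to 4.34 for *Bdkrb2*. Pseudocounts of 1 and 0.1 on FPKM gave 1.13 and 2.96 for *Bdkrb2* and -0.28 and -1.17 for *Ednrb*. The same pseudocounts gave -0.37 and -1.21 for *Ptgfr*, -0.25 and -0.62 for *Agtr1a* and -0.61 and -0.86 for *Ednra*. With at least 10 counts in every library, 1 receptor was called higher, since *Bdkrb2*, *Ednrb* and *Ptgfr* were then not tested. The order by level was the same per kb of the longest transcript.

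Library size alone gave 5529 genes higher and 2083 lower, against 3277 and 3306 with TMM, and limma gave 4976 and 1916 on log2(FPKM + 1) and 4989 and 1909 on log2(FPKM + 0.1). Of all calls, 72.6%, 72.2% and 72.3% were then higher, against 49.8%. For library size alone the scaling itself moves all genes, while for FPKM the cause was not tested. Lower ligands and enzymes were 7, 6 and 6 in these fits, lower G protein genes 4, 3 and 3, and higher G protein genes 16 under library size alone. Lower receptor regulators were 2 and 3 on FPKM, and 3 to 5 with each library left out. Within 500 kb, 10 neighbours were lower and 11 higher of 38 tested.

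With each library left out, values ran from -0.058 to 0.27 for *Adra1b*, -0.49 to 0.065 for *Agt*, -0.12 to 0.55 for *F2* and -0.42 to 0.046 for *Kng2*. Signs that turned were those of *Adra1b* without CRE replicate 3 (-0.058), *Agt* without CRE replicate 1 (0.065), *F2* without GFP replicate 2 (-0.086) or CRE replicate 1 (-0.12) and *Kng2* without GFP replicate 1 (0.046) or on FPKM (0.085 and 0.20). *Gnaq* turned under library size alone (0.025) and on FPKM (0.024 and 0.025) and *Papola* on FPKM (0.042 and 0.043), and the cause was not tested.

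Of 732 values of 49 other named genes under the alternatives, 678 had the same sign and side of the threshold, 41 lost a call, 2 gained one and 11 turned. On FPKM the calls of *Grk6*, *Kng1*, *Lpar2*, *Plcb1* and *Ramp2* were lost.

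Same-numbered libraries of the groups correlated at 0.046, 0.18 and -0.018 in their deviations from the group means. Differently numbered libraries correlated at -0.12 to 0.071. With 3 libraries per group, these values cannot decide whether the numbers pair the libraries. With the replicate block 6 of the receptors were lower and 2 higher, as without it, and of the named list genes *Gnaq* lost its call.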
